A study of Danio rerio with 13 samples.

Results

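Of the 160561 methylation peaks found in ZF4 cells, 12198 (7.60%) were annotated to a promoter and did not lie in a CpG island. These promoter peaks outside CpG islands were chosen by the annotation in the deposited table alone, without their read counts, and made up 91.2% of the 13381 promoter peaks. A total of 9410 of them carried a gene ID and belonged to 7567 genes, of which 5522 had a symbol, and 2788 carried no gene ID. Most genes (6053) had 1 such peak, 1252 had 2, 207 had 3 and 55 had 4 or more. Only 192 of the 7567 genes also had a promoter peak in an island. The peaks were 254 to 14463 bases long with a median of 853 bases, against 1194 bases for the 1183 promoter peaks in islands and 833 bases for the 138159 other peaks outside islands.

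In vertebrates, DNA methylation is mostly the addition of a methyl group to cytosines that are followed by guanine (CpG). CpG islands are short stretches rich in CpG that often lie over promoters and are mostly free of methylation, whereas promoters outside islands hold few CpGs and are often methylated, and methylated promoters are frequently silent. Methylated DNA immunoprecipitation sequencing (MeDIP-seq) captures methylated fragments with an antibody, so the reads on a peak measure methylation relative to other peaks of that library and depend on how many CpGs the region holds.

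ZF4 is a fibroblast cell line from zebrafish embryos. Cells of the control stayed at 28°C. The others were seeded alike and then moved to 18°C, in the same medium, and were harvested after 5 days (18°C /5d) or after 30 (18°C /30d), with no other treatment named. Where 3 values follow each other without a label, the control comes first, then the shorter and then the longer time at 18°C. For MeDIP-seq, DNA of 3 cultures was pooled into 1 library per condition, which leaves no replicate of the sequencing. At chosen loci the study also ran MeDIP-qPCR in 3 experimental replicates, and its values were not used here. A test on the reads of 2 such libraries compares the libraries, not the conditions. RNA-seq had 3 libraries per condition. Nothing states that the RNA libraries came from separate cultures, and p-values then measure the spread between these libraries, which may be technical.

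The MeDIP-seq libraries held 2406158 to 2952954 reads on peaks and the RNA-seq libraries 21407769 to 44853311 counts. The 3 RNA-seq libraries numbered 3 were the shallowest (21407769 to 22504969 counts) and stood apart from the others. Of 12 fibroblast and mesenchyme markers matched in the RNA table, 8 had a mean of at least 1 RPKM (reads per gene, scaled to gene length and library size) at 28°C, led by sparc (382 RPKM) and col1a1a (251 RPKM), while tgfbi was listed at 0 and dcn and thy1 lay under 0.2 RPKM. Of the matched markers of other cell types, 3 of 10 epithelial (krt8 at 394, krt18a.1 at 186 and krt4 at 13.8 RPKM), 2 of 6 blood (runx1 and lcp1), 1 of 5 muscle (myod1), 3 of 8 neural (nes, tubb5 and elavl3), 1 of 10 germ line (piwil2) and 0 of 4 endothelial markers reached 1 RPKM at 28°C. The endothelial marker fli1a, which carries the symbol FLI1 here, was not among the 4 matched. The epithelial markers summed to 428 to 865 RPKM at 28°C, while epcam, cdh5 and sox10 were listed at 0 there. Their part in the results was not tested. In a bulk culture, a change in the share of cells of a type cannot be told apart from a change within cells, for methylation and for RNA.

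The study designed primers for MeDIP-qPCR at some of these promoters. Those of 3 loci with peaks described further on are printed. The peak of trpm4b.2 had reads at 18°C and was listed at 0 at 28°C, and that of selenbp1 was the reverse. The 3 peaks of camk2a did not share a pattern. Capitals mark each CpG within the primer, and sequences run 5′ to 3′. The primers were not placed on the genome here, so the peak of each locus stands only by its Zv9/danRer7 coordinates. Whether a primer pair lies in a peak, and in which one for camk2a, was not determined.
trpm4b.2 forward: tcctttCGcagctttacatttg
trpm4b.2 reverse: tgatcttaacccaacCGtgag
selenbp1 forward: aggagcaagaggataCGgaa
selenbp1 reverse: gaatgtgagaaatCGgtgga
camk2a forward: ttCGaatCGtcaggcagaag
camk2a reverse: tcccctCGtttcacttttcc

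Reads were found in all 3 libraries for 5784 of 12198 peaks (47.4%, 95% Wilson interval 46.5% to 48.3%), against 70.3% (67.7% to 72.9%) of the promoter peaks in islands and 46.4% (46.1% to 46.7%) of the other peaks outside islands. Over all peaks the share was 47.7%. The intervals cover counting error only. A further 1303 peaks had reads at 28°C only, 1416 at 18°C /5d only and 1122 at 18°C /30d only, while 588 were at 0 at 28°C only, 1236 at 18°C /5d only and 749 at 18°C /30d only. The share with reads in all 3 libraries rose with length in every class of peak. In the shortest class, up to 615 bases, it was 11.4% for promoters outside islands, 13.6% for promoters in islands and 10.8% for other peaks outside islands. In the longest class, above 1189.75 bases, the shares were 79.3%, 89.2% and 80.5%, so at like lengths the promoter peaks outside islands stood close to the other peaks outside islands.

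**Figure D1:**
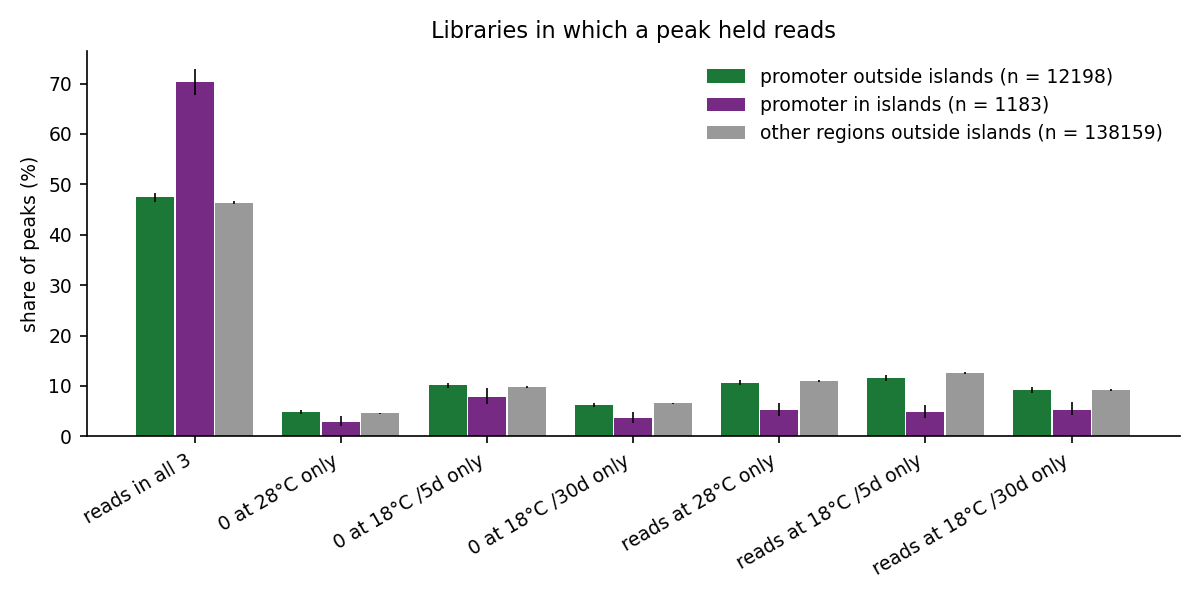
Share of peaks (%, bars, with 95% Wilson intervals) by the libraries in which they held reads, for promoter peaks outside islands (green), promoter peaks in islands (purple) and other regions outside islands (grey). Reads in all 3 libraries were found for 47.4%, 70.3% and 46.4% of them.

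A count of 0 was listed for 25.6%, 30.0% and 28.4% of the promoter peaks outside islands. Of the promoter peaks in islands, 13% were at 0 in the 28°C library and 13.6% in that of 18°C /30d. Above 0, the lowest counts were 4, 3 and 4 reads, and no peak held 1 or 2. The zeros therefore stand apart from the counts above 0. No limit on the level behind a 0 and no fold against it are given, only the count and the ratio of (RPM + 1). RPM is the deposited read number scaled to the reads on peaks of its library.

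Where a peak had reads, it had few. The medians were 17, 13 and 15 reads, and the highest counts were 1002, 1249 and 871. Together these peaks took 7.68%, 7.88% and 7.76% of the reads on peaks, close to their 7.60% share of all peaks. Per length, the median of peaks with reads was 6.17, 6.47 and 6.66 RPM per kilobase. That of promoter peaks in islands was 5.34, 5.31 and 5.70, and that of other peaks outside islands 6.26, 6.53 and 6.69. Including peaks at 0, the medians were 4.77, 4.58 and 4.97, against 4.88, 4.37 and 5.17 for promoter peaks in islands. For other peaks outside islands they were then 4.79, 4.60 and 4.90.

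Against 28°C, the 18°C /5d library was higher on 1340 and lower on 1534 of the promoter peaks outside islands by Fisher's exact test on reads (FDR at most 0.01 over all peaks, ratio of (RPM + 1) at least 2 or at most 0.5). These 2874 peaks were 23.6% of the promoter peaks outside islands, and 23.7% of all peaks were called (11.3% higher and 12.5% lower). The 18°C /30d library was higher on 1392 and lower on 1109 peaks, 20.5% of them, with 20.2% over all peaks (10.9% higher and 9.25% lower). The share of these calls that were higher was 55.7%, and it was 51.6% once library totals were scaled by the median ratio of peaks with reads everywhere. With at least 10 reads in 1 of the libraries compared, 982 were higher and 1109 lower (47.0% higher), so the majority direction depended on the setting. Between the days at 18°C, 1809 peaks were higher and 1019 lower at 18°C /30d, 23.2% of them, with 22.9% over all peaks (14.4% higher and 8.5% lower). Under the same scaling the higher share of these calls was 54.8% in place of 64.0%. Over all peaks, 54.1% and 62.9% of the calls of these last 2 comparisons were higher.

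Nearly all of these calls involved a 0. The study merged the peaks found in each library, so a peak with a 0 was listed only through a library where it had reads. The test used those same reads, and its FDR does not account for this choice. A 0 in 1 of the libraries compared was found for 92.5% of the calls at 18°C /5d, 99% of those at 18°C /30d and 92.2% of those between the days. Over all peaks these shares were 90.4%, 98.7% and 90.3%. Among peaks with reads in both libraries compared, 216 of 6533 (3.31%) were called at 18°C /5d, with 4.22% over all such peaks. At 18°C /30d 25 of 7020 (0.356%) were called, with 0.461% over all, and between the days 221 of 6372 (3.47%), with 4.26% over all. For the 5784 peaks read in every library, the median log2 ratio to 28°C was 0.01 after 5 days and 0.06 after 30. A change of at least 2-fold was found for 7.11% of them at 18°C /5d and for 1.61% at 18°C /30d. Over all peaks read in every library these shares were 8.52% and 1.73%.

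**Figure D2:**
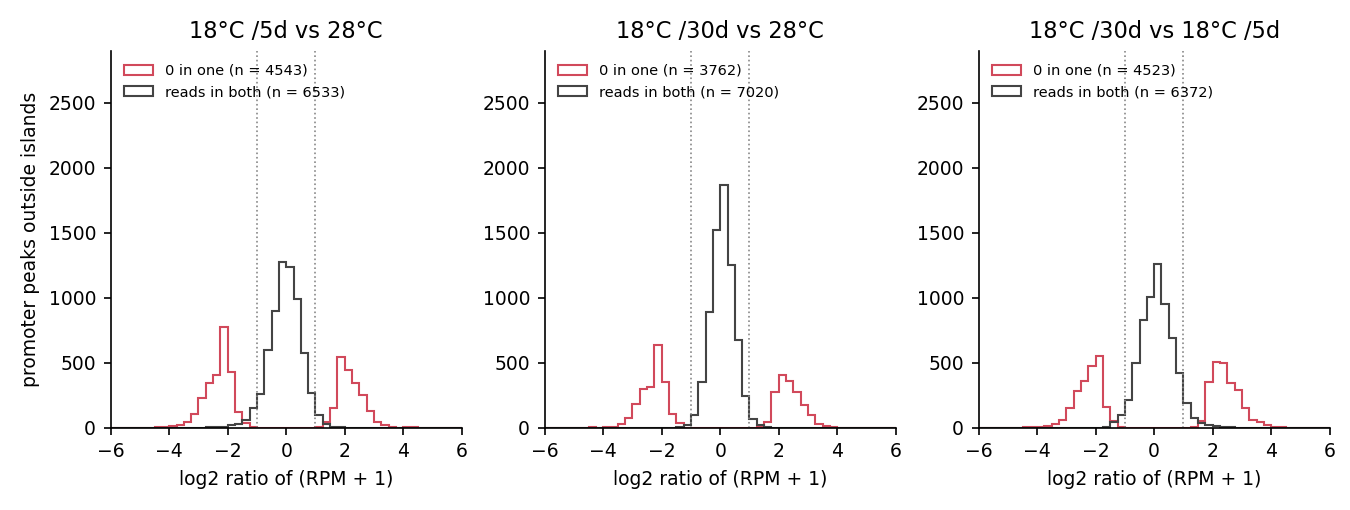
Number of promoter peaks outside islands (y axis) by log2 ratio of (RPM + 1) (x axis) in the 3 comparisons of libraries, for peaks with reads in both libraries (dark) and with 0 in one (red). Dotted lines mark 2-fold. Peaks with reads in both libraries centre near 0, and those with a 0 in one lie mostly beyond 2-fold.

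Both comparisons with 28°C share the 28°C library. At both times 580 peaks were lower and 406 higher than at 28°C, 8.08% of the promoter peaks outside islands, with 7.85% over all peaks (2.98% higher and 4.87% lower). None of these peaks was called in opposite directions at the 2 times, and such calls were rare over all peaks as well (46 of 160561). Of the 986, 977 (99.1%) had a 0 in a library, with 99.4% over all peaks. The 18°C /5d library differed from both others on more peaks (1380) than the 28°C library (986) or the 18°C /30d library (1056) did. These were 11.3%, 8.08% and 8.66% of the promoter peaks outside islands, close to 11%, 7.85% and 8.42% over all peaks. It was the lower one on 817 of the 1380. With each 0 replaced by the smallest count above 0 of its library, 27 peaks stayed higher and 23 stayed lower at both times.

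Only 9 peaks with reads in all 3 libraries were called at both times (0.156% of the 5784, with 0.106% over all such peaks). The lowest ratio at 18°C /5d was that of the peak of VWA2, which encodes a secreted protein with von Willebrand factor A domains, at chr12:31916800-31918204. It held 104, 26 and 39 reads, with ratios of 0.319 and 0.475. A peak of SCRN2 (secernin 2) at chr20:14581004-14581805 held 62, 17 and 24 reads. That of GOLT1A, a protein of Golgi transport, at chr11:24269582-24272940 held 49, 15 and 17 reads, and that of dlgap4a, a scaffold protein of synapses, at chr23:43247779-43249144 held 41, 10 and 12 reads. The highest count at 28°C among the 9, 119 reads, was on a peak without a gene ID at chr10:6657427-6659933, with 39 and 46 reads at 18°C, and it was the one peak called at both times when only peaks with reads in all 3 libraries were tested.

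The other 4 of the 9 were higher at 18°C, of which 3 are given here. The peak of a reelin-like gene (ENSDARG00000077935) at chr18:49783329-49787341 held 18, 45 and 45 reads. The peak of ENSDARG00000079971 at chr13:53815161-53816751 held 26, 49 and 46 reads, and a peak without a gene ID at chr2:9663932-9664337 held 10, 29 and 31 reads. With the zeros replaced, which also changes the adjustment over all peaks, 4 of the 9 kept both calls (VWA2, the reelin-like gene and both peaks without a gene ID).

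Among the peaks of genes with a symbol that had reads at 28°C and 0 in both cold libraries, the most reads were on those of ANXA11, annotated as annexin A11b, a calcium-dependent membrane-binding protein (55 reads, chr12:50256299-50257340), and cbln11 (54 reads, chr7:4470480-4471162). Next came prss60.3, a serine protease (47 reads, chr6:39037482-39038295), si:ch211-59c24.3, annotated as a MICAL-type monooxygenase (38 reads, chr18:10286071-10287006), and pimr196, of a large family of Pim-related kinases (36 reads, chr6:15813029-15813919). Near-identical copies of family genes such as prss60.3 and pimr196 could share reads, so their counts are uncertain. Among the peaks of genes with a symbol that were at 0 at 28°C and had reads in both cold libraries, high counts were on trpm4b.2, a cation channel of the TRP family, at chr12:5449231-5450784 with 89 and 97 reads. MARCHF7, a ubiquitin ligase (chr6:11710707-11711694), had 24 and 23 reads, and EGR2, a zinc finger transcription factor annotated as early growth response 2b (chr12:9259183-9259688), had 21 and 35. All of these kept both calls with the zeros replaced. They were picked for many reads opposite a 0, so this outcome was largely set by the choice and does not support them.

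The study names a set of cold-related loci, chosen on these libraries, so their direction here is a description. It assayed some of them by other means, and for coa3, osgin2 and txnipb it gives MeDIP-seq values only. Of the loci given here, the calcium signalling kinase gene camk2a had 3 promoter peaks outside islands that did not share a pattern. The one at chr21:42503724-42505358 was at 0 at 28°C with 27 and 22 reads at 18°C. Those at chr21:42497458-42500989 (39, 0 and 46 reads) and chr21:42502156-42503092 (22, 0 and 13 reads) were at 0 at 18°C /5d only.

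Lower counts at both times were found for selenbp1, a selenium-binding protein (25, 0 and 0 reads, chr16:40800178-40800653), and for the second peak of txnipb, a thioredoxin-binding protein (13, 0 and 0 reads, chr16:45711245-45711766). The neighbouring peak of txnipb at chr16:45709800-45711033 held 78, 52 and 46 reads and was not called. Peaks of aqp1a.2 (12 reads), gstk1 (12), coa3 (12), kdm4ab (11), cacng6a (16) and esrra (17) also had reads at 28°C and 0 at 18°C. The study describes the loci of cacng6a and esrra as CpG islands, that of esrra farther upstream than its promoter window, whereas the deposited table marks both peaks as promoter and neither as island, and the table is followed here. The other peak of aqp1a.2 (65, 56 and 40 reads) and that of esrra (16, 14 and 22 reads) were not called. The peak of epb41b, a cytoskeletal protein of the membrane (0, 50 and 16 reads, chr16:28698812-28699883), and that of osgin2 (0, 11 and 14 reads) were higher at both times. The ATP synthase subunit gene atp5j had one peak with 17, 21 and 0 reads and another with 0, 20 and 18 reads. With the zeros replaced, the calls at both times held for trpm4b.2 and the third peak of camk2a, and not for the other loci given here. The study reports other assays of some of these loci. By its bisulfite sequencing, fewer CpGs were methylated in the cold at the loci of cacng6a and esrra. By its MeDIP-qPCR, aqp1a.2, gstk1, kdm4ab, cacng6a, esrra, camk2a, atp5j, epb41b and trpm4b.2 followed its MeDIP-seq, and selenbp1 was lower in the cold. The values of these assays were not used here.

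**Figure D3:**
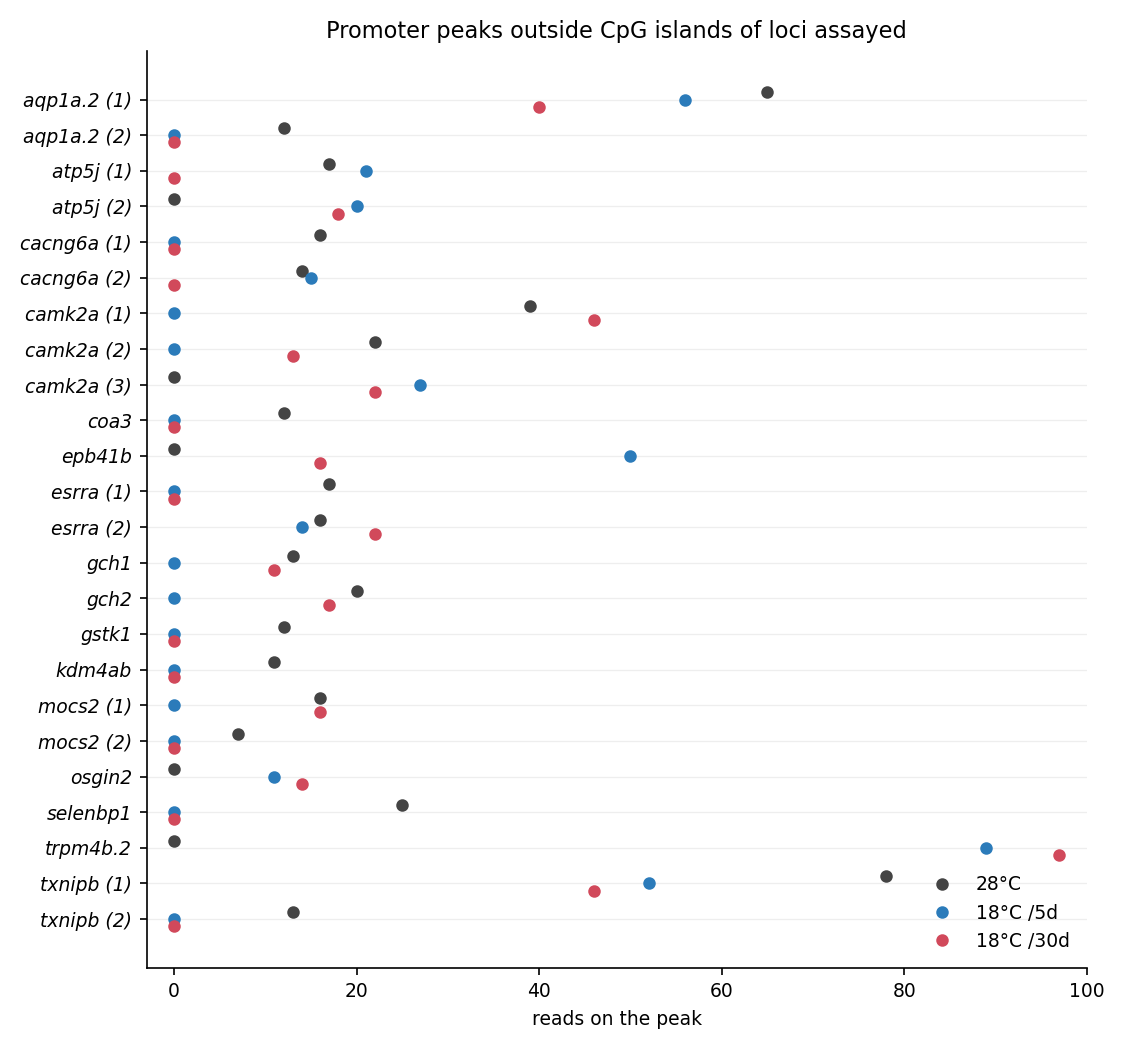
Reads (x axis) on each promoter peak outside islands of loci named by the study, not all of which it assayed by other means. Colours mark the 28°C (dark), 18°C /5d (blue) and 18°C /30d (red) library, with peaks of 1 gene numbered along the chromosome. Most differences are between 0 and fewer than 30 reads, and the largest is that of trpm4b.2 (0, 89 and 97 reads).

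Of the 1514 genes with at least 2 promoter peaks outside islands, 255 had 1 peak called at both times and 18 had at least 2, of which 6 had them in the same direction and 12 in both directions. The other peaks of the 463 genes with a promoter peak lower at both times were lower at both times in 5.89% of cases, against 5.01% for all genes with a promoter peak outside islands. Within 1 kb of the 580 lower peaks, 157 had a neighbouring peak, and 7 of these neighbours were lower at both times and 6 higher. Over all peaks, 2362 of 54610 such neighbours were lower and 1596 higher, so these counts lay near the background.

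The genes with the most promoter peaks outside islands were macf1a, a linker of actin and microtubules, and RANBP2, a nuclear pore protein, with 6 each. The 6 peaks of RANBP2 spread over chr9:396129-418461, and the 2 with the lowest coordinates held 22, 0 and 18 reads and 27, 0 and 35 reads. The other 4 held 0 to 20 reads and were not called against 28°C. Those of macf1a ran from 36593421 to 36891943 on chromosome 19, and the largest of them held 46, 53 and 45 reads. Among the genes with 5 each were PLCG1, a phospholipase, eif4ba, a translation initiation factor, and ENSDARG00000012336, annotated as component of oligomeric golgi complex 6. Each of these 5 genes had at least 1 peak with reads in all 3 libraries and at least 1 with a 0.

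Among genes with a symbol, the 5 peaks with the highest density in their lowest library were looked up, a choice that favours peaks that are high in every library. The peak of hrc, a calcium-binding protein of muscle, at chr12:5070032-5071153 held 78.8, 87.9 and 73.3 RPM per kilobase (261, 243 and 198 reads). That of sagb, a retinal arrestin, at chr15:44839934-44845242 held 63.9, 95.4 and 68.2 RPM per kilobase and the most reads of all these peaks (1002, 1249 and 871). Those of si:dkey-201k7.1 (110, 94 and 98 reads), SCARF1, a scavenger receptor (225, 278 and 205 reads), and nlrp3, a gene of the NOD-like receptor family (180, 183 and 153 reads), followed. The ratios against 28°C lay between 0.932 and 1.49.

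Of all 32677 genes of the RNA table, 7567 had a promoter peak outside islands, and of all peaks 4.87% were lower and 2.98% higher at both times. With so few peaks in each list, the counts that follow are a description. By role, antioxidant and redox genes had 13 of 36 matched members with such a peak, and 3 of their 15 peaks were lower and 1 was higher at both times (selenbp1, gstk1 and txnipb lower, osgin2 higher). Of apoptosis genes 10 of 34 had one, with 1 of their 11 peaks lower (CASP2, a caspase, with 19, 0 and 0 reads) and 1 higher. Chromatin genes had 18 of 52, with kdm4ab and kdm2aa, both histone demethylases, lower (11 and 18 reads at 28°C, 0 at 18°C). Immune and interferon genes had 10 of 53, with the interferon ifnphi2 (11, 0 and 0 reads) and the interferon regulatory factor IRF8 (20, 0 and 0 reads) lower. Energy metabolism genes had 12 of 44, with esrra lower and atp5j higher, and aquaporin and TRP channel genes 8 of 24, with aqp1a.2 lower and trpm4b.2 higher. In ion channel genes of heart and nerve, 7 of 13 had such a peak, with 1 lower (cacng6a) and 2 higher (camk2a and cacng3a, 0, 14 and 13 reads). Folate and pterin genes had 4 of 13 and none was called at both times, but the peaks of mocs2 (16, 0 and 16 reads), gch1 (13, 0 and 11) and gch2 (20, 0 and 17) were at 0 at 18°C /5d only, and that of shmt1, an enzyme of folate metabolism named after its values were seen, was higher there (0, 13 and 7). Genes of lens, eye and pigment (3 of 14) and of liver and digestive tract (3 of 23) had no peak called at both times. Of the 7 peaks in lens, eye and pigment genes, which include tyr and dct of melanin synthesis, 6 had reads in all 3 libraries.

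Families named in the gene descriptions were looked at after the data were seen and are given as counts. Odorant, taste and trace amine receptors, which belong to sensory cells, made up 90 of the 9388 described promoter peaks outside islands (0.959%). They made up 0.0992% of the described other peaks outside islands and 0.114% of the described promoter peaks in islands. Peaks without a gene description were left out of each class. Reads in all 3 libraries were found for 60% of the 90. Their 78 genes had a median of 0 RPKM at 28°C, 40 were listed at 0 in all 9 RNA libraries and 1 reached 1 RPKM. Near-identical copies in this family could share reads. Homeobox, hox and forkhead factors made up 1.74% of the described promoter peaks outside islands. Their share was 1.60% of the described promoter peaks in islands and 0.924% of the described other peaks outside islands. Ribosomal protein genes had 40 peaks on 37 genes with a median of 20.3 RPKM at 28°C. Of these 40 peaks 5 were lower and 3 higher at both times (20% of them, with 8.26% of all described peaks), and 32.5% had reads in all 3 libraries.

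The genes with a promoter peak outside islands were expressed at a middle level. Their median at 28°C was 1.09 RPKM where they had no promoter peak in an island (7375 genes), against 0.8 RPKM for the 601 genes with promoter peaks in islands only, 2.17 RPKM for 10609 genes with other peaks but no promoter peak, and 0.0167 RPKM for 13900 genes without a peak. The share of genes with at least 1 RPKM at 28°C was 50.9%, 48.1%, 61.1% and 26.1% in the same order. The density of the peak made little difference to the level. For genes with a single such peak that had reads in all 3 libraries, the median was 1.16, 1.17, 1.03 and 1.06 RPKM from the lowest to the highest quartile of RPM per kilobase at 28°C. It was 1.03 RPKM for single peaks with reads at 28°C and 1.01 RPKM for those at 0.

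For RNA, 5518 of the 7567 genes passed the filter on low counts and were tested among 19622 genes. At 18°C /5d no gene passed an adjusted p under 0.05 by edgeR's quasi-likelihood test with Benjamini-Hochberg adjustment (0.0% of all genes tested). At an unadjusted p under 0.05, 347 of the 5518 were higher and 280 lower (11.4%, with 11.3% of all genes), and DESeq2 called 101 higher and 63 lower (2.76%, with 2.61%). At 18°C /30d 1 gene rose and 1 fell, with 0.0612% called over all genes, and at an unadjusted p under 0.05 427 were higher and 288 lower (13%, with 13.7%). DESeq2 called 179 higher and 83 lower there (4.51%, with 4.36%). Between the days at 18°C none passed (0.0% of all genes), with 52 higher and 20 lower at an unadjusted p under 0.05 (1.30%, with 1.28%) and none called by DESeq2 (0.00761% of all genes).

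With the replicate number as a block, edgeR called 5 genes higher and 6 lower at 18°C /5d (0.199%, with 0.26% of all genes, 0.127% higher and 0.133% lower). At 18°C /30d the block gave 60 higher and 26 lower (1.56%, with 1.51% of all genes, 1.02% higher and 0.494% lower), and none between the days (0.0% of all genes). With replicates 1 and 2 only, an alternative chosen after the data were seen, 13 were higher and 3 lower at 18°C /30d (0.292%, with 0.275% of all genes). At 18°C /30d, 578 of the 5518 genes (10.5%) were higher and 427 (7.74%) lower without overlap between the groups, with 10.3% and 8.5% of all genes. At 18°C /5d the shares were 9.12% and 7.96%, with 9.27% and 8.35% of all genes, and between the days 3.32% and 2.46%, with 3.19% and 2.31%.

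The 2 genes called without the block were ADK and zgc:194210. ADK encodes adenosine kinase, which returns adenosine to AMP. Its RNA was at 28.5, 26.4 and 34 CPM (counts scaled to library size) at 28°C, 8.64, 7.92 and 8.98 CPM at 18°C /5d and 8.43, 8.26 and 10.0 CPM at 18°C /30d. All 6 cold libraries lay below all 3 at 28°C. It fell by 1.74 ± 0.21 on the log2 scale at 18°C /30d (SE, edgeR quasi-likelihood test, adjusted p = 0.0445, and 0.0756 to 0.218 without each library in turn). At 18°C /5d the log2 fold change was -1.80 ± 0.21 (adjusted p = 0.0594, 0.0258 with the block by edgeR). Its promoter peak at chr13:25425916-25426712 held 12, 0 and 16 reads, so it was called lower at 18°C /5d only. The RNA of zgc:194210 was at 0.312, 0.827 and 0.499 CPM at 28°C, 6.74, 10.0 and 4.72 CPM at 18°C /5d and 7.29, 6.77 and 5.97 CPM at 18°C /30d. It rose by 3.60 ± 0.45 on the log2 scale at 18°C /30d (adjusted p = 0.0445 by edgeR, and 0.0756 to 0.218 without each library in turn). At 18°C /5d edgeR called this gene with the block and not without it. Its promoter peak at chr16:33741048-33742265 held 14, 10 and 14 reads, without a call.

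The RNA of genes whose promoter peak outside islands differed at both times moved little as a group. Of 451 genes with a peak lower at both times, 337 were tested, and their median log2 fold change was 0.01 at 18°C /5d and 0.06 at 18°C /30d. Of 298 genes with a peak higher at both times, 218 were tested, with medians of -0.05 and 0.06. Over all genes tested the medians were -0.01 and -0.01. Without each library in turn, the medians of the lower peaks ran from -0.02 to 0.07 at 18°C /5d and from -0.03 to 0.12 at 18°C /30d. Those of the higher peaks ran from -0.12 to 0.10 and from 0.01 to 0.14, so 3 of the 4 medians changed sign. Of the 337, 29 genes were higher and 33 lower without overlap at 18°C /30d (8.61% and 9.79%), and of the 218, 25 and 20 (11.5% and 9.17%), with 10.3% and 8.5% of all genes.

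**Figure D4:**
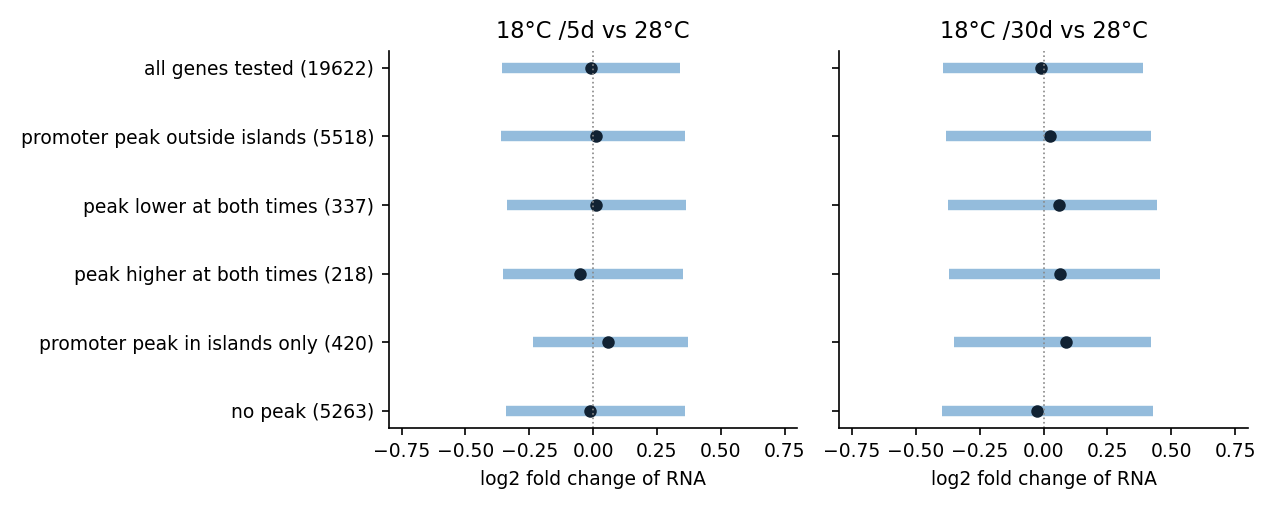
Log2 fold change of RNA against 28°C (x axis, point for the median, bar for the middle 50% of genes) at 18°C /5d and 18°C /30d for genes grouped by their peaks, with the number of genes tested. All medians lie between -0.05 and 0.09, and the bars overlap almost in full.

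With the block, 11 calls fell on genes with a peak called in 1 direction at both times, 1 after 5 days and 10 after 30. The 10 were 1.78% of the genes with a lower peak and 1.83% of those with a higher peak, near the 1.51% of all genes. The peak calls that place these genes in a group rested on a 0. With the zeros replaced, none of these peaks kept both calls, and only that of selenbp1 kept 1, at 18°C /5d. The largest change of RNA was that of RGS4, a regulator that shortens signals of G protein-coupled receptors. Its RNA was at 0.831, 2.03 and 0.208 CPM at 28°C, 12.5, 18.4 and 6.12 CPM at 18°C /5d and 53.4, 91.3 and 22.3 CPM at 18°C /30d. The groups did not overlap. Its log2 fold change was 3.56 ± 0.80 at 18°C /5d and 5.73 ± 0.88 at 18°C /30d without the block (adjusted p = 0.167 and 0.0693 by edgeR), and 3.80 and 5.89 with it (adjusted p = 0.0252 and 0.00183 by edgeR). Its promoter peak at chr6:34386039-34386808 was higher at both times (0, 16 and 17 reads). The RNA of dleu7 (0.208 to 0.331 CPM at 28°C and 0.897 to 5.39 CPM at 18°C /30d) and of SOX7, a transcription factor of blood vessels (0.499 to 3.24 and 9.09 to 36.1 CPM), also rose with the block at 18°C /30d (log2 3.01 and 3.21, adjusted p = 0.0435 and 0.0354 by edgeR). Each of these 2 genes had a peak higher at both times and another that was not called. ENSDARG00000077766, which had a higher peak, fell with the block (253, 291 and 892 CPM at 28°C against 102, 48.8 and 227 CPM at 18°C /30d, adjusted p = 0.0333 by edgeR). Another peak of this gene had ratios of 0.454 and 0.555 against 28°C with the zeros replaced, without a call.

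Of the genes with a lower peak, PACSIN1, a membrane-bending protein, FSTL1, a secreted follistatin-like protein, and selenbp1 rose with the block at 18°C /30d. PACSIN1 was at 0.0709 to 0.416 CPM at 28°C and 2.06 to 4.86 CPM at 18°C /30d (log2 3.65, adjusted p = 0.0252 by edgeR). FSTL1 was at 8.05, 4.2 and 15.3 CPM and at 26.8, 39.4 and 34 CPM (log2 2.0, adjusted p = 0.0461 by edgeR). The RNA of selenbp1 was at 81.3, 67.6 and 91.6 CPM at 28°C, 145, 191 and 224 CPM at 18°C /5d and 244, 262 and 258 CPM at 18°C /30d. All cold libraries lay above those at 28°C, and the log2 fold change at 18°C /30d was 1.67 ± 0.27 (adjusted p = 0.0693, and 0.0252 with the block, both by edgeR, and 3.37e-07 by DESeq2 without it). ANGPT1, a ligand of blood vessels, ephb4b, a receptor of veins, and FLI1, an endothelial transcription factor, fell with the block at 18°C /30d. ANGPT1 was at 12.4, 6.71 and 48 CPM at 28°C and 2.04, 2.74 and 3.24 CPM at 18°C /30d (log2 -2.61, adjusted p = 0.0421 by edgeR). The other 2 fell by 1.09 (ephb4b) and 1.21 (FLI1) on the log2 scale (adjusted p = 0.04 and 0.0461 by edgeR). FLI1 had 5 peaks with no reads at 18°C /5d in any of them, of which 1 was lower at both times (17, 0 and 0 reads, chr18:46986092-46986535). Without the block and without each library in turn, the adjusted p at 18°C /30d by edgeR ran from 0.0841 to 0.252 for RGS4, from 0.0956 to 0.252 for selenbp1 and from 0.101 to 0.501 for the other 8 genes. The 4 matched endothelial markers were near 0 in all libraries, with a summed level of 0.72 to 1.91 RPKM, in which cdh5 was listed at 0. FLI1, annotated as friend leukemia integration 1a, is itself an endothelial marker, but it was not matched and is not in this sum. The part of endothelial cells in these results was not tested.

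**Figure D5:**
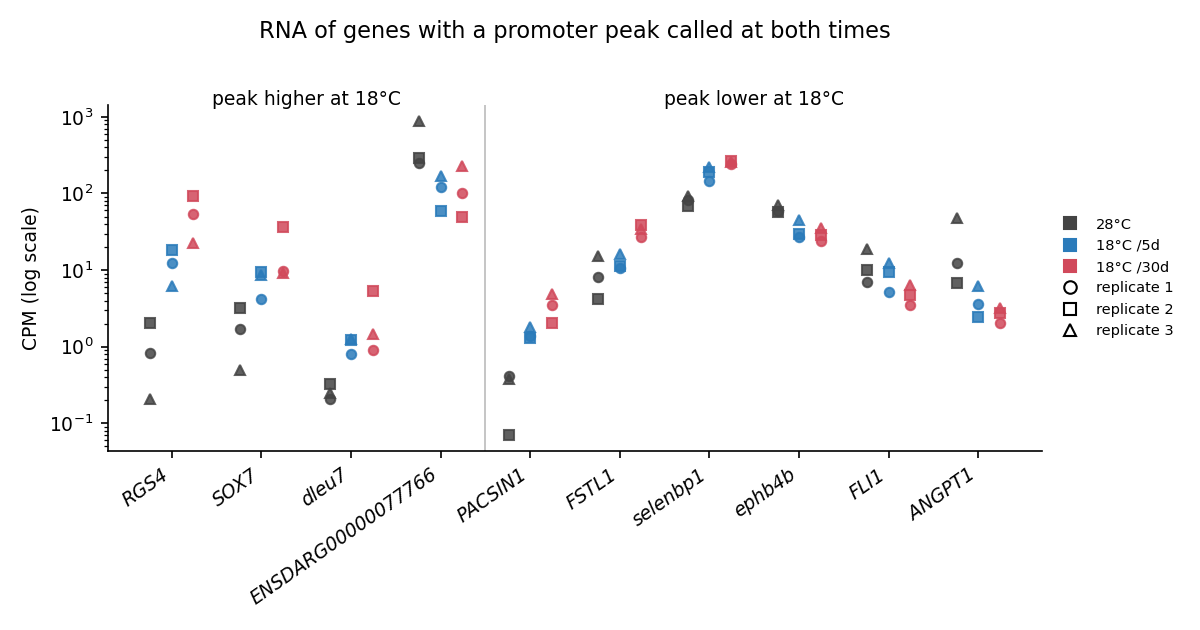
RNA level (CPM, log axis) in each library of the genes called with the replicate block whose promoter peak outside islands was higher (left) or lower (right) at both times, by condition (colour) and replicate number (shape). Of the genes with a higher peak 3 rose and 1 fell, and of those with a lower peak 3 rose and 3 fell. None of these peaks kept both calls with the zeros replaced.

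For the other loci the study names and that are given here, no RNA change passed edgeR's test without the block. DESeq2, also without it, called gch1 at 18°C /5d and 18°C /30d (adjusted p = 0.00732 and 0.00557 by DESeq2). It called gstk1 at 18°C /30d (adjusted p = 0.0306 by DESeq2), but not trpm4b.2 or camk2a there (0.956 and 0.118). The RNA of trpm4b.2, the locus with the largest difference in reads, was at 0.709 to 1.71 CPM at 28°C and 0.755 to 1.49 CPM at 18°C /30d (log2 0.10 ± 0.49, adjusted p = 0.95 by edgeR). That of camk2a was at 3.52 to 5.62 CPM at 28°C and 2.12 to 2.74 CPM at 18°C /30d without overlap (log2 -0.86 ± 0.30, adjusted p = 0.247 by edgeR). That of gch1, the first enzyme of pterin synthesis, was at 0.541 to 1.16 CPM at 28°C, and at 2.45 to 4.23 CPM at 18°C /30d (log2 2.02 ± 0.48, adjusted p = 0.133, and 0.0366 with the block, both by edgeR).

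The RNA of gstk1, an enzyme of glutathione conjugation, was at 34.8 to 106 CPM at 28°C and 17.5 to 25.4 CPM at 18°C /30d (log2 -1.55 ± 0.42, adjusted p = 0.163 by edgeR, 0.0507 with the block). That of SCRN2 was at 25, 9.17 and 37 CPM at 28°C, and 4.99, 2.16 and 4.45 CPM at 18°C /5d (log2 -2.62 ± 0.51, adjusted p = 0.146 by edgeR, 0.000409 by DESeq2). That of VWA2 was at 31 to 62.6 CPM at 28°C and 66.8 to 107 CPM at 18°C /5d (log2 1.09 ± 0.36, adjusted p = 0.295 by edgeR, 0.14 by DESeq2). Both had a promoter peak with reads in all 3 libraries that was lower at both times. SCRN2 had another at chr20:14596513-14597463 (29, 0 and 0 reads) that was lower at both times, also with the zeros replaced. The genes aqp1a.2, cacng6a, txnipb and osgin2 were at or under 0.25 CPM in every library and were not tested.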

How the data were processed

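Peaks and reads were taken as deposited. Per the study's methods, the authors ran the FASTX-Toolkit, Bowtie2 (on Zv9/danRer7) and, for each library, MACS. They merged overlapping peaks with Bedtools and counted reads on the merged peaks, with promoters within 3 kb upstream of a start site. The deposited read counts per peak and the deposited RPM (reads scaled to all reads on peaks of the library) were used. RNA-seq gene counts and RPKM were used as deposited by the authors, whose alignment and counting are not given in the sources used here. The 9 TPM columns and the authors' own comparisons (fold changes and p-values) were not used, and the input DNA was not analysed here. Longer peaks can hold more reads, and the origin of the zeros was not tested.

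Samples were grouped by temperature and days from the labels. Peaks were compared by two-sided Fisher's exact tests with Benjamini-Hochberg adjustment over 160561 peaks (scipy 1.17.1, statsmodels 0.14.6), with a pseudocount of 1 RPM. For RNA, the test was that of edgeR 4.0.16 (quasi-likelihood, TMM, filterByExpr) in R 4.3.3 on counts of all 9 libraries, with DESeq2 1.42.0, the replicate block, other filters, scalings and left-out libraries as alternatives. The replicate numbers come from the labels only. Deviations of same-numbered libraries correlated at 0.272 to 0.67 in all 9 pairs, and those of differently numbered libraries at -0.7 to 0.513 in 18 pairs. The 28°C library numbered 1 correlated more with the 18°C /30d library numbered 2 (0.513) than with that numbered 1 (0.272). The pairing by number is therefore uncertain. Blocked counts are given beside the main ones, and blocked values for some of the genes whose calls they change. On simulated counts with the spread of these libraries, edgeR recovered 0 of 200 genes changed 4-fold between 18°C /5d and 28°C, and 200 of 200 at a biological CV of 0.1. The simulation held the 28°C and 18°C /5d libraries only, whereas the test used here fitted all 9 together, so its recovery can differ. Named peaks and genes were the loci the study names, peaks called at both times with reads in all 3 libraries, the largest with a 0, the densest, genes with the most peaks, list members called at both times, and genes with called peaks and called RNA. The members and lists were chosen with earlier results of these data known. Results of 2 of the named genes are not reported here.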

Additional observations from a re-analysis of the deposited data

Results flagged for a closer look

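For 20 of the 101 named peaks, the 18°C /30d library differed from the 18°C /5d library past the threshold by Fisher's exact test on reads (FDR at most 0.01 and a difference of 2-fold or more), with 22.9% of all peaks called in this comparison, so that the difference from 28°C was not the same at both times. The values are ratios of (RPM + 1) at 18°C /30d against 18°C /5d, each from 1 library per condition. The ratio was largest for camk2a, with 20.1 for the peak with 39, 0 and 46 reads and 6.40 for that with 22, 0 and 13 reads. RANBP2 followed with 15.5 (27, 0 and 35 reads) and 8.48 (22, 0 and 18 reads). Of the other loci at 0 at 18°C /5d, the ratio was 8.07 for gch2, 7.65 for mocs2 and 7.65 for ADK, and 5.57 for gch1, ANGPT1 and ephb4b. FLI1 had ratios of 8.48, 6.40 and 4.74 on 3 of its 5 peaks. A peak of eif4ba with reads at 18°C /30d only had 6.40, and that of ENSDARG00000012336 with 26, 6 and 22 reads had 2.95.

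The ratio was below 1 for 5 of the 20 peaks. It was 0.105 for atp5j (17, 21 and 0 reads), 0.141 for cacng6a (14, 15 and 0 reads), 0.159 for eif4ba (7, 13 and 0 reads), 0.170 for macf1a (12, 12 and 0 reads) and 0.359 for epb41b (0, 50 and 16 reads). A count of 0 at 18°C /5d or 18°C /30d was listed for 18 of the 20 peaks.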

How the results depend on the processing

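Counts of called peaks rested on the zeros. With only peaks with reads in all 3 libraries tested, 153 were called at 18°C /5d, 1 at 18°C /30d, 145 between the days and 1 at both times. Of all such peaks, 3.30%, 0.103%, 3.11% and 0.0235% were called. When zeros took the lowest count above 0 of their library, the counts were 523, 166, 536 and 50. Of all peaks, 4.70%, 1.23%, 4.83% and 0.320% were called in that setting. With an FDR of at most 0.001 and 4-fold the counts were 1017, 924, 887 and 276, with 8.10%, 7.26%, 7.17% and 2.02% of all peaks called. A pseudocount of 0.1, scaled totals, a minimum of 10 reads and only genes without an island promoter peak kept all 4 counts within 1.5 times. A minimum of 10 reads moved the higher share of calls from 46.6% to 36.9% at 18°C /5d and from 55.7% to 47.0% at 18°C /30d. Between the days it moved from 64.0% to 60.4%. Including peaks at 0, the median was 4.77, 4.58 and 4.97 RPM per kilobase, and over peaks with reads in all 3 libraries 6.80, 6.58 and 7.37.

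For RNA, DESeq2 called 164 genes at 18°C /5d and 262 at 18°C /30d, and the replicate block 11 and 86, while it changed no call between the days. At 18°C /30d, 0 were called without the filter on low counts, 0 with only the 6 libraries compared, 16 with replicates 1 and 2 only and 0 to 1 without each library in turn (1 without 18°C /30d replicate 3). For genes with a peak lower at both times, the median log2 fold change without each library in turn was -0.0250 to 0.0709 after 5 days and -0.0272 to 0.115 after 30. For those with a higher peak it was -0.115 to 0.0975 and 0.00953 to 0.145, with 0.109 and 0.165 for replicates 1 and 2 only and 0.0549 and 0.263 with zeros replaced. The cause of these differences was not tested. No called change of a named peak or gene reversed under any alternative run, and 161 of their alternatives lost a call. With a median of 13 to 17 reads and 1 library per condition, small differences between peaks were not detectable.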

Other observations

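Some zeros stood beside many reads. Of the 6414 promoter peaks outside islands with a 0 in a library, 28 had at least 50 reads and 12 at least 100 in another. The peak of ENSDARG00000002738 at chr15:20477491-20481756 held 0, 1038 and 763 reads (control, shorter and longer time at 18°C). That of MB21D2 at chr15:44741715-44743177 held 324, 102 and 0 reads. The cause was not tested.

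The share of promoter peaks outside islands called at both times differed between chromosomes, from 4.63% on chromosome 24 to 13.6% on chromosome 6, where 41 peaks were lower and 24 higher. Over the whole genome the share was 8.08% for these promoter peaks and 7.85% for peaks of every class. Other peaks on the same chromosomes were not counted for comparison. Whether the spread between chromosomes is particular to promoter peaks outside islands was therefore not tested, and these shares are a description only.

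The 3 RNA libraries numbered 3 were far lower in some genes at every temperature. The RNA of nlrp3 was at 64.3 to 119 CPM in the libraries numbered 1 and 2 and at 4.99 to 6.44 CPM in those numbered 3. That of ENSDARG00000012336 was at 719 to 1378 CPM and at 59.8 to 71.7 CPM.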
